A study of Macaca mulatta with 8 samples.

Results

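The genes described are 5 receptors of the tumour necrosis factor (TNF) receptor superfamily, TNFRSF18, TNFRSF4, TNFRSF9, TNFRSF1B and CD27, together with CD70, the ligand of CD27. They were chosen by symbol, and 5 of the 6 have a row among the 16429 genes of the count table: TNFRSF18 (ENSMMUG00000014205), TNFRSF1B (ENSMMUG00000021447), TNFRSF9 (ENSMMUG00000016546), CD27 (ENSMMUG00000014265) and CD70 (ENSMMUG00000011042). TNFRSF4 was not analysed here. In the RefSeq gene order of rhesus macaque (assembly T2T-MMU8v2.0), TNFRSF18 and TNFRSF4 are neighbours on chromosome 1, CD27 lies beside the lymphotoxin receptor gene LTBR on chromosome 11, and CD70 lies between the ligand genes TNFSF9 and TNFSF14 on chromosome 19.

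Receptors of this superfamily have no enzyme activity of their own. Trimeric ligands cluster them, and TRAF adaptor proteins then carry the signal to NF-kB and related pathways. GITR (the product of TNFRSF18), TNFR2 (TNFRSF1B), OX40 (TNFRSF4) and 4-1BB (TNFRSF9) are costimulatory receptors that regulatory T cells (Tregs) and activated T cells carry. CD27 is present on most resting T cells, and its ligand CD70 appears on T cells, B cells and dendritic cells mainly after activation.

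The samples were rhesus macaque blood mononuclear cells that had been frozen, thawed, enriched for CD4 and sorted, profiled by droplet single-cell RNA sequencing in a study of Tregs given by adoptive transfer. On day 3 and on day 20, cells were sorted as CFSE-positive (CFSE is a dye that marks labelled cells, so this sort is taken as the transferred cells), CD25high CD127low (labelled endogenous), CD127-positive CD25-positive, or CD127-positive CD25-negative (conventional). The CFSE-positive and CD25high CD127low sorts are called the Treg sorts below, for short only. CFSE is not a Treg marker, and the authors classed most cells of the second sort as conventional (Tconv), as given below. The labels give no animal, age, genotype or treatment for any library, and do not say from what event the days are counted. There was 1 library per sort and day, so no difference was tested: intervals are 95% intervals for counting error (exact Poisson for levels, exact Clopper-Pearson for shares of cells), and say nothing of variation between animals. Levels are CPM, the unique molecular identifier (UMI) counts of a gene per 1000000 UMIs of the group. Counts came from the 3' ends of transcripts, and levels are compared between groups, not between genes.

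The 8 libraries held 25397 cells, with 2992787 to 12149559 UMIs per library and medians of 2131 to 3095 UMIs per cell. Of 25012 distinct barcodes, 382 occurred in more than 1 library, in 767 cells, and leaving those cells out changed no call of a member. The sort labels and the authors' 3 cell classes (transTreg, endoTreg, Tconv) match closely in the CFSE-positive libraries, where 98.5% (day 3) and 92.6% (day 20) of cells were transTreg. In the CD25high CD127low libraries, however, 60.9% and 57.9% of cells carried the Tconv class, so values for that sort are also given by class. The summed level of 4 T cell markers was 1366 to 2543 CPM, and all 4 were detected in every library. Most of this was CD3D, at 1174.5 to 2273 CPM. CD4 was at only 3.47 to 7.29 CPM although the cells were enriched for CD4, so a low RNA level here need not mean absence. FOXP3, which defines Tregs, had levels of 259 CPM (day 3) and 127 CPM (day 20) in CFSE-positive cells, 76.0 and 67.8 CPM in CD25high CD127low cells and at most 17.3 CPM elsewhere. IL7R, which encodes CD127, was at 13.4 and 32.1 CPM in CFSE-positive cells and at 404 to 1008 CPM in the others. B cell markers (6 of 6 found) summed to 254 CPM in the day 3 and 149 CPM in the day 20 CFSE-positive library, to 115 and 96.4 CPM in CD25high CD127low cells and to 22.3 to 40.5 CPM in the rest. Most of this came from IGKC, CD79A and CD79B, while MS4A1, which encodes a B cell surface protein, was at no more than 3.95 CPM in any library. Monocyte markers summed to 3.68 to 21.8 CPM, NK markers to 39.9 to 266 CPM with both CD127-positive CD25-negative libraries highest, and platelet markers to at most 1.11 CPM. Red cell markers (2 of 4 found) summed to 126 to 1557 CPM, highest in the day 3 CD25high CD127low library.

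TNFRSF18 RNA was most abundant in transferred cells on day 3 and lowest in conventional cells on both days. On day 3 it stood at 235 CPM (227 to 244) in CFSE-positive, 81.7 CPM (76.4 to 87.2) in CD25high CD127low, 46.4 CPM (42.0 to 51.1) in CD127-positive CD25-positive and 26.4 CPM (22.8 to 30.3) in CD127-positive CD25-negative cells. On day 20 the same order of sorts gave 93.9 CPM (83.2 to 106), 90.7 CPM (83.6 to 98.3), 56.7 CPM (52.3 to 61.5) and 25.9 CPM (22.5 to 29.7). The day 3 transferred library stood apart from all others, whereas the intervals of both CD25high CD127low libraries and the day 20 transferred library overlapped, as did those of the conventional libraries.

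Per cell, 43.6% (42.1 to 45.1) of CFSE-positive cells had a TNFRSF18 UMI on day 3 and 20.9% (18.6 to 23.4) on day 20. The share was 16.2% and 17.2% in CD25high CD127low cells, 10.00% and 10.2% in CD127-positive CD25-positive cells, and 5.37% and 4.84% in CD127-positive CD25-negative cells. With every cell thinned to 1000 UMIs (17 cells of the first library and 6 in each of both day 20 CD127-positive libraries were too shallow), the expected shares were 19.99% and 8.80% in CFSE-positive, 6.80% and 8.12% in CD25high CD127low, 4.02% and 5.36% in CD127-positive CD25-positive and 2.75% and 2.65% in conventional cells. At equal depth the order of the sorts by value was the same on both days. The thinned shares carry no intervals. On day 20 the unthinned intervals of CFSE-positive (18.6 to 23.4) and CD25high CD127low cells (15.7 to 18.8) overlapped, so these sorts are not ordered then. Within the conventional sort, the authors' cluster 6 had a TNFRSF18 UMI in 0.77% of 1168 cells on day 3 and cluster 5 in 10.7% of 549 cells, although the median depth was 2574 UMIs in the first and 1618 in the second. The low share of this sort was thus uneven over its cells.

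TNFRSF1B RNA was also higher in both Treg sorts than in both CD127-positive sorts, but its highest library was that of endogenous cells on day 3. The day 3 values were 91.3 CPM (86.0 to 96.8) in CFSE-positive, 116 CPM (110 to 123) in CD25high CD127low, 45.5 CPM (41.2 to 50.1) in CD127-positive CD25-positive and 33.5 CPM (29.5 to 37.9) in CD127-positive CD25-negative cells. On day 20 they were 82.9 CPM (72.9 to 93.8), 88.3 CPM (81.3 to 95.8), 37.3 CPM (33.7 to 41.2) and 35.1 CPM (31.2 to 39.5). No library of a Treg sort overlapped a CD127-positive one. The day 3 transferred, day 20 endogenous and day 20 transferred libraries could not be ordered within counting error. A TNFRSF1B UMI was seen in 22.8% and 19.4% of CFSE-positive, 24.7% and 19.2% of CD25high CD127low, 11.6% and 7.49% of CD127-positive CD25-positive and 7.47% and 6.83% of conventional cells. At 1000 UMIs per cell these shares became 9.05% and 8.12%, 10.1% and 8.19%, and 3.73% to 4.34% in both CD127-positive sorts.

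TNFRSF9 was close to undetected in these cells. There were 7 UMIs in 7 of the 25397 cells: 3 in the day 3 and 1 in the day 20 CFSE-positive library, 1 in each CD25high CD127low library and 1 in the day 20 CD127-positive CD25-negative library. The other libraries had 0 UMIs, for example 0 of 4751 cells in the day 20 CD127-positive CD25-positive library, which allows a share of up to 0.063%. All 3 UMIs of the day 3 transferred library fell in cells that the authors named effector Tregs. No difference was detectable at this depth.

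CD27 RNA was higher on day 20 than on day 3 in both Treg sorts, and not in the conventional sort. On day 3 its level was 11.2 CPM (9.39 to 13.2) in CFSE-positive, 14.0 CPM (11.9 to 16.4) in CD25high CD127low, 8.72 CPM (6.89 to 10.9) in CD127-positive CD25-positive and 20.3 CPM (17.2 to 23.8) in CD127-positive CD25-negative cells. On day 20 it was 29.1 CPM (23.3 to 35.9), 28.4 CPM (24.5 to 32.8), 12.1 CPM (10.1 to 14.4) and 15.2 CPM (12.7 to 18.2). The conventional library was therefore the highest of its day on day 3, and both Treg sorts were above it on day 20, with intervals that do not overlap. Between 2.51% and 7.38% of cells in a library had a CD27 UMI, and 0.83% to 2.88% at 1000 UMIs per cell.

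CD70, the ligand of CD27, was concentrated in transferred cells of day 3. That library gave 670 of the 831 CD70 UMIs of the series (80.6%), with 18.0% of all UMIs. The level there was 55.1 CPM (51.0 to 59.5), against 4.08 CPM (2.96 to 5.47) in CD25high CD127low, 1.68 CPM (0.94 to 2.77) in CD127-positive CD25-positive and 1.86 CPM (1.01 to 3.11) in CD127-positive CD25-negative cells. On day 20 the CFSE-positive library was at 10.4 CPM (7.04 to 14.7), still above the 3.50 CPM (2.22 to 5.25), 1.72 CPM (1.02 to 2.71) and 1.97 CPM (1.12 to 3.19) of the other sorts.

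The share of cells with a CD70 UMI was 10.4% (9.49 to 11.4) in CFSE-positive cells on day 3 and 2.44% (1.63 to 3.50) on day 20, or 4.88% and 1.06% at 1000 UMIs per cell. In CD25high CD127low cells it was 1.22% and 0.85% (0.40% and 0.40% thinned), and in both CD127-positive sorts 0.34% to 0.43%. Cluster 6 of the conventional sort on day 3 had 0 of 1168 cells with a CD70 UMI, which allows a share of up to 0.257%. Cluster 5 of the same sort was at 6.10 CPM on day 3 and at 11.2 CPM (5.58 to 20.01) on day 20, so the low level was uneven here too. Of the 431 CD70-positive cells of the day 3 transferred library, 150 had at least 2 CD70 UMIs and the highest had 8.

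**Figure D1:**
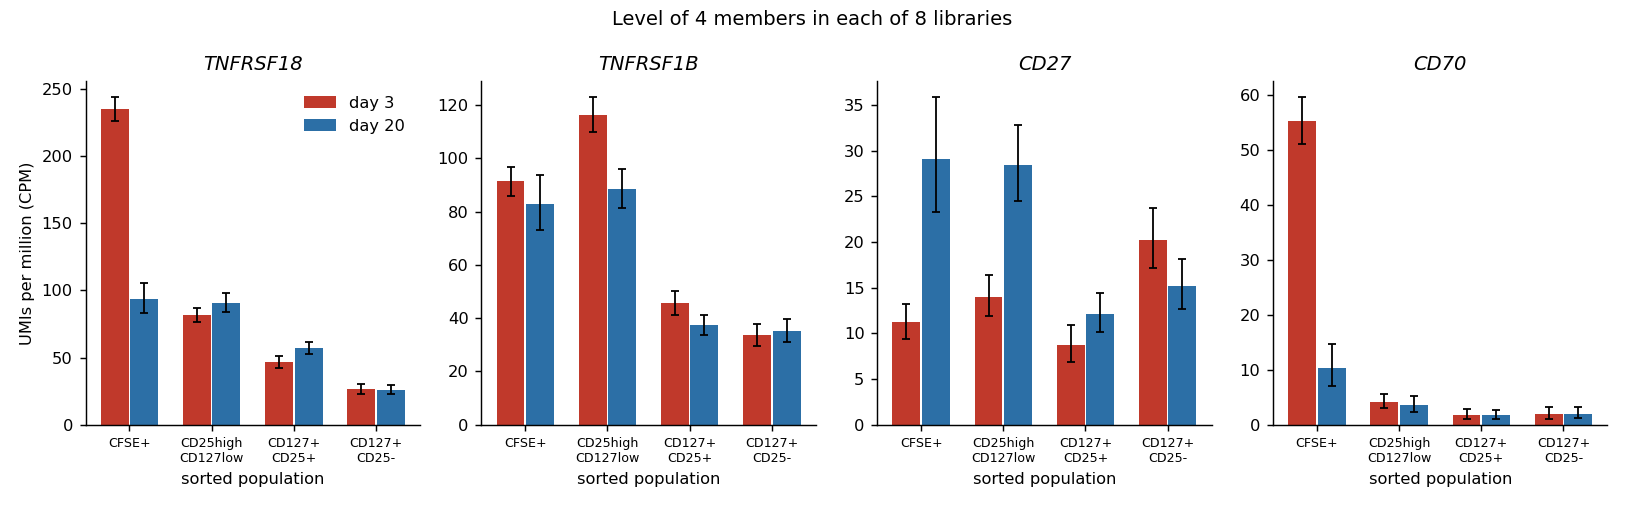
Level of each gene in CPM (vertical axis, own scale per gene) in the 4 sorted populations, for day 3 (red) and day 20 (blue). Bars are the value of 1 library and error bars the 95% Poisson interval. The day 3 CFSE-positive library is the highest for TNFRSF18 and CD70, and both Treg sorts are highest for CD27 on day 20.

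Transferred cells were compared with the conventional sort on each day, which asks how they differ from ordinary CD4 T cells. The call rule took ratios of (CPM + 10): a gene was called if it differed 2-fold or more in 1 direction on each day, with 20 CPM or more in either library each time. TNFRSF18 was called higher in CFSE-positive cells, at 8.91-fold (7.72 to 10.3) on day 3 and 3.62-fold (3.02 to 4.35) on day 20, log2 ratios of 2.75 and 1.53. TNFRSF1B was also called higher, at 2.72-fold (2.37 to 3.13) and 2.36-fold (1.98 to 2.81), log2 ratios of 1.22 and 1.04. These were 2 of the 3 members that passed the minimum, where 1.59% of all 3831 genes tested were called higher. The all-gene median log2 ratio was 0.42 on day 3 and 0.10 on day 20, and relative to it TNFRSF18 was at 2.34 and 1.44 and TNFRSF1B at 0.80 and 0.94.

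CD27 passed the minimum and was not called, with log2 ratios of -0.51 and 0.63. CD70 was 29.7-fold (17.6 to 54.6) higher in transferred cells on day 3 and 5.27-fold (2.80 to 10.3) higher on day 20, but reached 20 CPM on day 3 only. TMM or median-of-ratios scaling, which lower the day 3 all-gene median by 0.30 and 0.29, ended the call of TNFRSF1B (0.91 on day 3 under both) and kept that of TNFRSF18. In cells without any B cell marker UMI, TNFRSF1B was at 0.98 on day 20 and no longer called, and TNFRSF18 was at 2.70 and 1.41.

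Endogenous cells were compared with the same conventional libraries, so both comparisons share their controls. TNFRSF18 was called higher in CD25high CD127low cells, at 3.09-fold (2.65 to 3.63) on day 3 and 3.50-fold (2.99 to 4.11) on day 20, log2 ratios of 1.33 and 1.49. TNFRSF1B was called higher at 3.47-fold (3.02 to 3.98) and 2.51-fold (2.18 to 2.91), log2 ratios of 1.54 and 1.12. Again 2 of 3 members that passed the minimum were called, against 0.646% of 3562 genes called higher and 0.449% called lower. CD27 was not called, at -0.34 and 0.61, and CD70 stayed under the minimum.

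Without cells that had a B cell marker UMI, 586 of 3347 cells on day 3 and 340 of 2343 on day 20 were lost from the CD25high CD127low sort. TNFRSF18 was then at 0.92 and 1.23 and TNFRSF1B at 1.29 and 0.90, and neither was called. The cells left out had more of both genes than those kept on day 3, with TNFRSF18 at 170 against 59.9 CPM and TNFRSF1B at 190 against 98.1 CPM. What part B cell RNA has in this was not tested. Leaving out cells with at least 3 marker UMIs or high depth kept both calls, at 1.17 and 1.47 for TNFRSF18 and 1.45 and 1.05 for TNFRSF1B.

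Transferred and endogenous cells differed mainly on day 3. Against the CD25high CD127low sort, TNFRSF18 was 2.88-fold (2.67 to 3.11) higher in CFSE-positive cells on day 3 and 1.03-fold (0.90 to 1.19) on day 20, a log2 ratio of 0.04 that became -0.02 under TMM scaling. CD70 was 13.5-fold (9.96 to 18.8) higher on day 3 and 2.96-fold (1.67 to 5.32) on day 20. TNFRSF1B was 1.27-fold (1.17 to 1.38) lower on day 3 and within counting error on day 20, and CD27 was within counting error on both days. None of the 2 members that passed the minimum was called, where 0.506% of 3752 genes were called higher and 1.09% lower. The comparison mixes classes, since 60.9% and 57.9% of the endogenous sort was Tconv.

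Between the matching classes, transTreg of the CFSE-positive sort and endoTreg of the CD25high CD127low sort, the receptors moved apart. TNFRSF1B was lower in transTreg cells on both days, at 91.6 CPM against 214 CPM on day 3 and 85.0 CPM against 150 CPM on day 20, log2 ratios of -1.14 and -0.75. TNFRSF18 was at 236 CPM against 120.1 CPM on day 3 and at 92.9 CPM against 130.2 CPM on day 20, so that the endogenous class was higher on day 20. CD70 was 7.01-fold (4.99 to 10.2) higher in transTreg cells on day 3 and 2.49-fold (1.16 to 5.77) on day 20. CD27 was at 11.3 CPM against 18.1 CPM and at 30.5 CPM against 37.9 CPM, and only the day 3 intervals did not overlap. None of these met the rule of 2-fold on both days, where 0.551% of 3810 genes were called higher and 1.23% lower. The all-gene median log2 ratio was 0.28 on day 3 and -0.03 on day 20.

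Within the CD25high CD127low sort, endoTreg cells had more TNFRSF1B, TNFRSF18 and CD27 than Tconv cells of the same library. TNFRSF1B was called higher, at 214 CPM against 48.4 CPM on day 3 and 150 CPM against 46.8 CPM on day 20, which is 4.42-fold (3.88 to 5.04) and 3.20-fold (2.67 to 3.84). It was 1 of 2 members that passed the minimum, beside 0.902% of 3549 genes called higher. Class and level come from the same cells, and how the authors named the classes is not given. Comparisons of classes, here and elsewhere, thus describe the classes and test nothing. TNFRSF18 was 2.23-fold (1.94 to 2.56) and 2.11-fold (1.79 to 2.51) higher, but at log2 0.97 on day 20 it fell short once 10 CPM were added, and with a pseudocount of 1 CPM or the mean of per-cell CPM it was called too. Its log2 ratios were lower under TMM scaling, at 0.89 and 0.83, and without cells with a B cell marker UMI, at 0.56 and 0.62. CD27 was 1.64-fold (1.18 to 2.30) and 1.75-fold (1.29 to 2.37) higher at levels of 18.1 and 37.9 CPM in endoTreg cells. CD70 was 5.59-fold (2.64 to 13.2) higher on day 3 and 1.09-fold (0.43 to 2.70) on day 20.

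**Figure D2:**
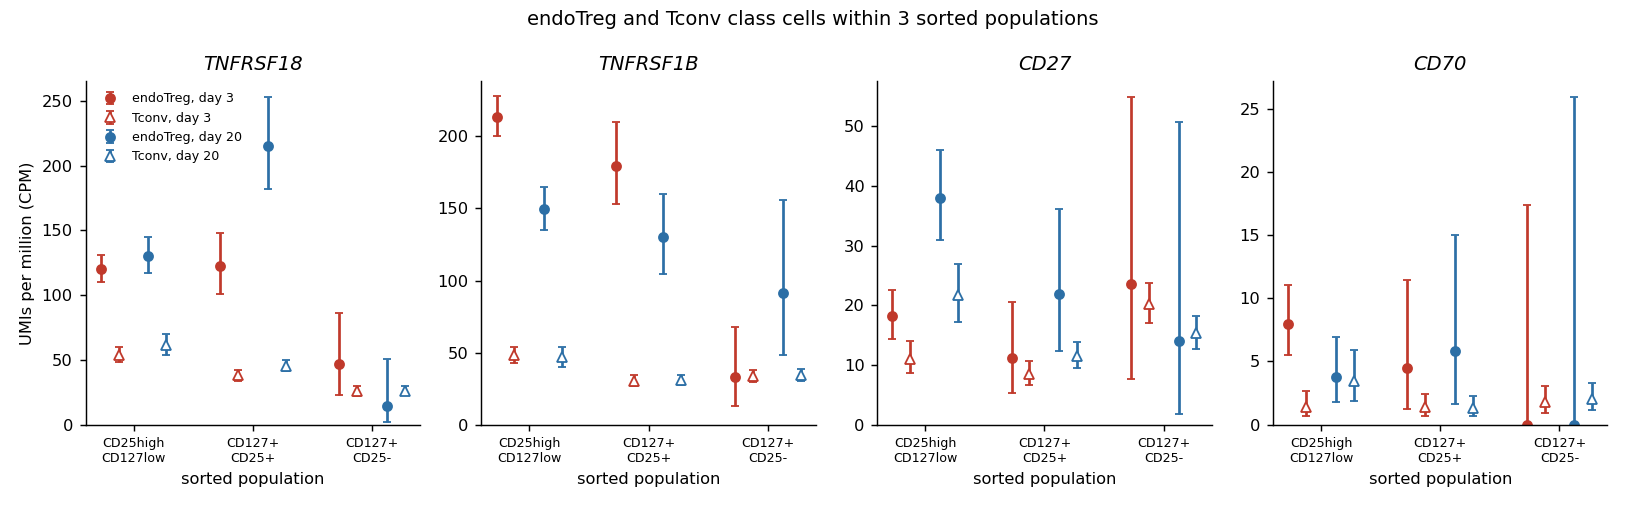
Level in CPM (vertical axis, own scale per gene) of endoTreg cells (filled circles) and Tconv cells (open triangles) within 3 sorts, day 3 in red and day 20 in blue, with 95% Poisson intervals. For TNFRSF18 and TNFRSF1B the endoTreg cells of the CD25high CD127low and CD127-positive CD25-positive sorts lie above the Tconv cells of the same library, and the 73 and 50 endoTreg cells of the CD127-positive CD25-negative sort give wide intervals.

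The CD127-positive CD25-positive sort held few endoTreg cells, 272 on day 3 and 293 on day 20, and in these TNFRSF18 and TNFRSF1B stood above the Tconv cells. TNFRSF18 was at 123 CPM (101 to 148) on day 3 and 215 CPM (182 to 253) on day 20, against 37.9 CPM and 45.6 CPM in Tconv cells of the same libraries. TNFRSF1B was at 179.8 CPM (153 to 209.8) and 130.2 CPM (105 to 160.3), against 30.5 CPM and 30.6 CPM. As a whole, this sort differed less from conventional cells: TNFRSF18 was 1.76-fold (1.48 to 2.09) and 2.19-fold (1.87 to 2.57) higher and TNFRSF1B 1.36-fold (1.16 to 1.59) and 1.06-fold (0.91 to 1.24). None of the 2 members that passed was called, where 0.0579% of 3452 genes were called higher and 0.492% lower. CD27 was 2.33-fold (1.76 to 3.10) lower in this sort on day 3, under the minimum on day 20, and 1.26-fold (0.97 to 1.63) lower then.

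**Figure D3:**
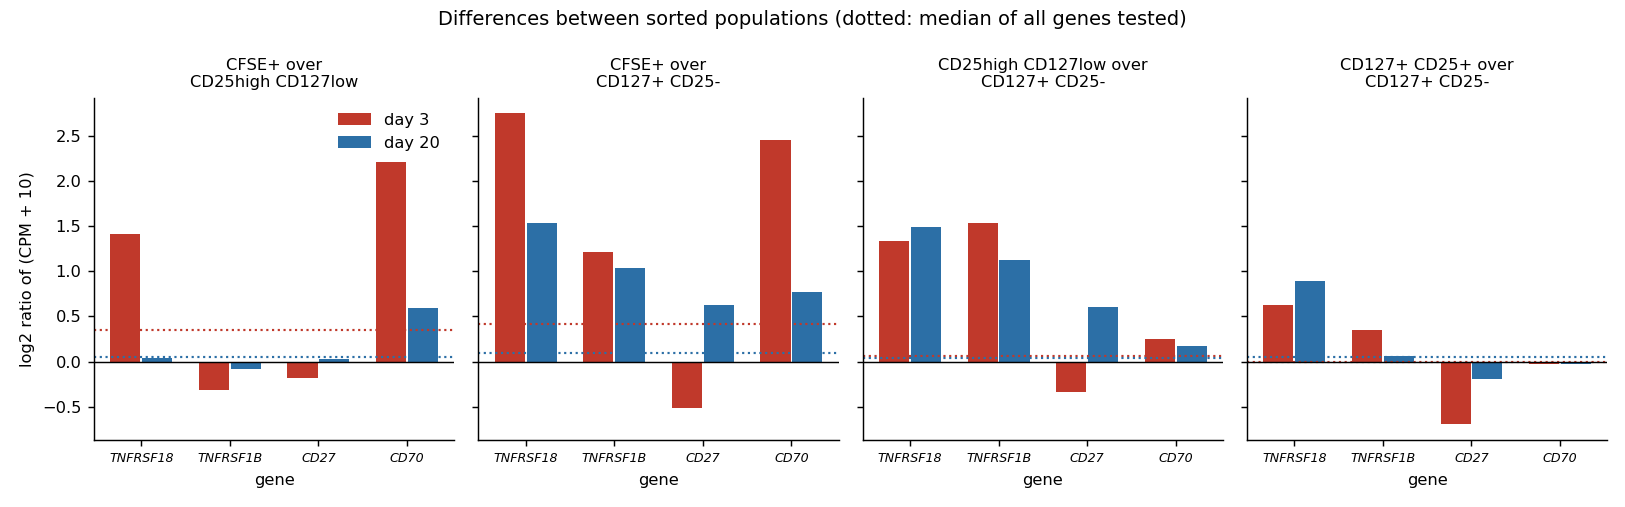
Log2 ratio of (CPM + 10) between sorted populations (vertical axis) for 4 genes on day 3 (red) and day 20 (blue), with the median of all genes tested as dotted lines. TNFRSF18 and TNFRSF1B are above 1 on both days in both Treg sorts against CD127-positive CD25-negative cells, and the ratios of CD27 have opposite signs on the days there.

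From day 3 to day 20, CFSE-positive cells were called lower for TNFRSF18 and CD70. TNFRSF18 was 2.50-fold (2.21 to 2.84) lower on day 20, a log2 ratio of -1.24, and CD70 was 5.32-fold (3.71 to 7.90) lower, at -1.68. Over all 4203 genes tested, 2.12% were called lower and 2.55% higher. CD70 reached the minimum of 20 CPM on day 3 only and CD27 on day 20 only, each the day of its higher level, so the number of members called is not read against these shares. TNFRSF1B was 1.10-fold (0.96 to 1.27) lower, and CD27 was 2.60-fold (1.96 to 3.42) higher, a log2 ratio of 0.88 after adding 10 CPM. The all-gene median of this contrast was -0.26, and relative to it TNFRSF18 was at -0.97, CD70 at -1.41, TNFRSF1B at 0.14 and CD27 at 1.15. With a pseudocount of 1 CPM, CD27 was at 1.30 and called higher.

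No member was called between days in the other sorts, where 1.48% of genes were called higher and 0.188% lower in CD25high CD127low cells, 0.0274% higher and 0.109% lower in CD127-positive CD25-positive cells, and 0.0553% higher and 0.0553% lower in conventional cells. CD27 was 2.03-fold (1.63 to 2.53) higher on day 20 in CD25high CD127low cells and 1.39-fold (1.04 to 1.87) in CD127-positive CD25-positive cells. In CD127-positive CD25-negative cells it was 1.33-fold (1.04 to 1.70) lower. TNFRSF1B was 1.32-fold (1.19 to 1.45) lower on day 20 in CD25high CD127low and 1.22-fold (1.06 to 1.41) lower in CD127-positive CD25-positive cells. TNFRSF18 differed by 1.22-fold at most in these sorts. Red cell markers also differed between the days, at 306 to 1557 CPM on day 3 and 126 to 147 CPM on day 20, and their part in the day differences was not tested.

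The authors also gave 7515 cells 1 of 7 finer names, which divide the transferred cells into effector Tregs, cells in transition and naive Tregs. Among CFSE-positive cells, effector cells went from 27.1% on day 3 to 0 of 1149 cells on day 20 (up to 0.261% allowed), cells in transition from 64.9% to 4.96%, and naive cells from 2.97% to 85.7%. Both named classes and gene levels come from these same cells, so the levels below describe the classes and test nothing. On day 3 TNFRSF18 was at 326 CPM (307 to 346) in transferred effector cells, 205 CPM (195 to 215) in cells in transition and 74.0 CPM (46.9 to 111) in naive cells. The intervals did not overlap.

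CD70 had the same order, at 87.2 CPM (77.4 to 97.9), 42.2 CPM (37.9 to 47.0) and 9.66 CPM (1.99 to 28.2). The unnamed groups Unk1 and Unk2 of that library, with 115 and 61 cells, were at 102 CPM (69.3 to 145) and 57.2 CPM (28.6 to 102). TNFRSF1B varied less, at 124 CPM (112 to 136), 80.2 CPM (74.1 to 86.7) and 64.4 CPM (39.3 to 99.4). CD27 was at 11.8 CPM (8.40 to 16.1) and 11.9 CPM (9.66 to 14.6) in the first classes and had 0 UMIs in 123 naive cells, which allows up to 9.66 CPM by the floor of 3 UMIs.

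Within the naive name, the day ratios of TNFRSF18 and CD70 had intervals that include no change. TNFRSF18 was at 74.0 CPM on day 3 and 91.8 CPM (80.4 to 104) on day 20, a ratio of 1.24 (0.81 to 1.99), and CD70 at 9.66 CPM and 9.29 CPM (5.95 to 13.8), a ratio of 0.96 (0.29 to 4.99). The day 3 value of CD70 rests on 3 UMIs in 123 cells, so that a change of several fold either way lies within its interval. Cells in transition on day 20 (57 cells) had TNFRSF18 at 129 CPM (77.6 to 201), a ratio of 0.63 (0.38 to 0.99) to day 3, and 2 CD70 UMIs. CD27 in naive cells was at 29.0 CPM (22.8 to 36.4) on day 20, above the limit for day 3. For TNFRSF18 and CD70, the intervals of the day ratio in naive cells did not overlap those of the whole sort, and the difference between the ratios was not tested.

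Endogenous effector and naive Tregs, named within the CD25high CD127low sort, differed in TNFRSF18 by 7.76-fold (6.15 to 9.87) on day 3 and 7.80-fold (5.37 to 11.7) on day 20. The levels were 259 CPM (235 to 284) and 211 CPM (187 to 237) in effector cells and 33.3 CPM (26.7 to 41.1) and 27.1 CPM (18.4 to 38.5) in naive cells. TNFRSF1B differed by 2.57-fold (2.25 to 2.95) and 3.02-fold (2.36 to 3.91), at 340.4 CPM (313 to 370) and 217 CPM (192 to 243) in effector and 132 CPM (119 to 147) and 71.7 CPM (57.0 to 89.0) in naive cells. CD70 was at 18.0 CPM (12.2 to 25.8) and 6.74 CPM (3.08 to 12.8) in effector cells, and naive cells had 2 UMIs in 798 cells and 0 in 412. CD27 differed by 1.40-fold (0.87 to 2.23) and 1.22-fold (0.80 to 1.88), within counting error. Both endogenous names were higher for CD27 on day 20, by 1.92-fold (1.25 to 2.99) and 2.20-fold (1.39 to 3.47), and lower for TNFRSF1B, by 1.57-fold (1.36 to 1.82) and 1.84-fold (1.45 to 2.38).

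Side by side, transferred and endogenous effector cells on day 3 were close in TNFRSF18, with 1.26-fold (1.13 to 1.41) more in transferred cells. Transferred effector cells had 2.76-fold (2.42 to 3.14) less TNFRSF1B and 4.83-fold (3.31 to 7.29) more CD70. In naive cells on day 20, TNFRSF18 was 3.39-fold (2.32 to 5.10) higher in transferred than in endogenous cells, and TNFRSF1B (1.17-fold, 0.90 to 1.52) and CD27 (0.83-fold, 0.56 to 1.25) were within counting error. CD70 was at 9.29 CPM in 985 transferred naive cells and had 0 UMIs in 412 endogenous ones, which allows up to 2.62 CPM.

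**Figure D4:**
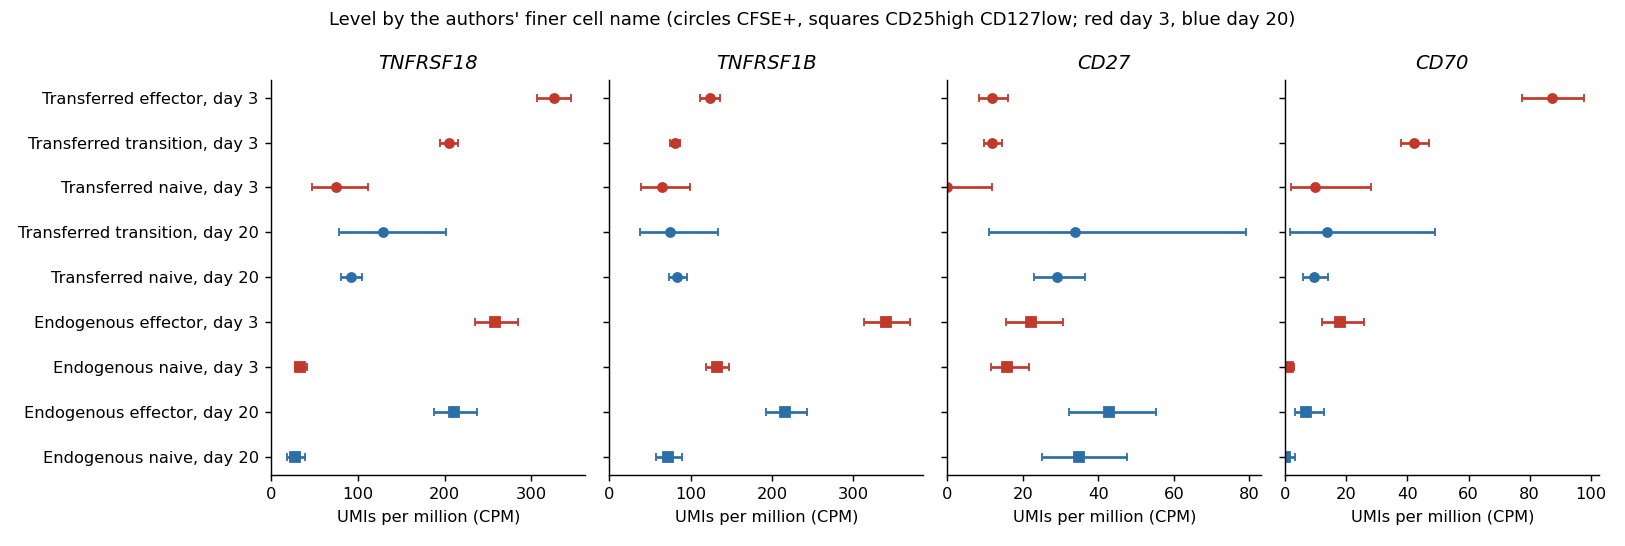
Level in CPM (horizontal axis, own scale per gene) by the finer cell name of the authors, circles for CFSE-positive and squares for CD25high CD127low cells, day 3 in red and day 20 in blue, with 95% Poisson intervals. TNFRSF18 and CD70 descend from effector to naive transferred cells, and TNFRSF1B is highest in endogenous effector cells of day 3.

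Conventional cells were not uniform. Among the clusters of at least 50 cells in the CD127-positive CD25-negative sort, TNFRSF1B ranged from 9.09 CPM in cluster 6 to 150.5 CPM (127 to 177) in cluster 5 on day 3, and from 5.41 CPM in cluster 10 to 180.0 CPM (154 to 209) in cluster 5 on day 20. TNFRSF18 ranged from 2.92 CPM to 78.3 CPM and from 4.84 CPM to 78.8 CPM, with cluster 6 lowest on both days and clusters 5 and 9 highest on day 3 and day 20. CD27 was highest in cluster 5 too, at 41.7 CPM (29.9 to 56.5) and 38.6 CPM (27.3 to 53.0). In the CD25high CD127low sort, cluster 3 was the highest for TNFRSF18 (225 and 207 CPM), TNFRSF1B (312 and 203 CPM) and CD27 (21.8 and 42.1 CPM).

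Cells with CD70 RNA were also compared with the others for the receptors. Among the transTreg cells of the day 3 CFSE-positive library, 427 had a CD70 UMI and 3652 had none, at median depths of 2819 and 2796 UMIs. TNFRSF18 was at 305 CPM (275 to 336) in the first and 228 CPM (219 to 237) in the second, while CD27 was at 15.7 CPM (9.56 to 24.2) and 10.8 CPM (8.88 to 12.9) and TNFRSF1B at 79.8 CPM (65.1 to 96.9) and 93.0 CPM (87.3 to 99.0). FOXP3 was at 258 CPM (230.5 to 287) and 259.9 CPM (250.3 to 269.7), with overlapping intervals. B cells can express CD70, so the cells of this library were also divided by B cell marker UMIs. CD70 was at 64.0 CPM (57.5 to 71.1) in the 1762 cells with one and at 47.9 CPM (42.8 to 53.4) in the 2380 without, at median depths of 2912 and 2701 UMIs. In cells without such a UMI of the other libraries, CD70 was at 1.32 to 9.45 CPM. The part of B cell RNA in the CD70 level was not tested.

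Over the 8 libraries, the log2 levels of TNFRSF18 correlated with those of CD70 (Pearson r = 0.85) and TNFRSF1B (r = 0.80), and CD27 with none of them (r = 0.01 with TNFRSF18, 0.25 with TNFRSF1B and -0.12 with CD70). These are descriptions over 8 points that share their days and sorts, and the day 3 CFSE-positive library lies far from the rest. By the same measure, over 1950 genes with at least 50 CPM in 1 library, the genes most like TNFRSF18 were TTC39C, TRAF7, a TRAF family ubiquitin ligase, and the histone gene H2AFJ (r = 0.995, 0.995 and 0.993). Those most like TNFRSF1B were THOC5 of the mRNA export machinery (0.97), the B cell receptor chain gene CD79B (0.92) and the antiviral gene OAS1 (0.91). For CD27 they were DDX39B and NOP10, both RNA processing genes (0.94 each), and C1orf63 (0.93). For CD70 they were BAX, a pro-apoptotic gene, the small GTPase gene RAB24 and the lysosomal gene LAPTM5 (0.996 each). BAX was at 894 CPM in CFSE-positive cells of day 3, 262 CPM on day 20 and 106 to 140.4 CPM in the other libraries. Only 3 of these 12 genes were also among the closest 3 over groups of library and class, and 1 by rank correlation over the libraries.

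Of 24 other TNF receptors listed, 20 were in the table, and few were expressed: 4 passed the minimum in the comparison with conventional cells. FAS, the death receptor, was the 1 called higher in CFSE-positive cells (1.59% of all genes were), at 89.3 CPM against 21.1 CPM on day 3 and 55.8 CPM against 22.2 CPM on day 20. The median of these 4 was 0.51 and 0.16, near the all-gene medians of 0.42 and 0.10. TNFRSF14 (HVEM) and TNFRSF25 (DR3) were picked out after their values were seen. TNFRSF14 was at 103 and 96.2 CPM in transferred cells and 57.3 to 75.1 CPM elsewhere. TNFRSF25 was at 29.7 and 37.1 CPM in transferred cells and 43.7 to 64.9 CPM elsewhere. EDA2R, chosen in the same way, stayed under the minimum and was at 13.6 CPM (11.6 to 15.8) in the day 3 transferred library and at most 1.34 CPM in any other.

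Among 17 other TNF ligands listed, 13 were in the table and 6 passed the minimum against conventional cells, where 1.2% of all genes were called lower. CD40LG, the helper ligand of T cells, was called lower in CFSE-positive cells, at 2.47 CPM against 56.9 CPM on day 3 and 1.67 CPM against 84.5 CPM on day 20. It was also lower than in CD25high CD127low cells (35.4 and 50.5 CPM), and within that sort it was lower in endoTreg than Tconv cells, at 15.9 against 49.1 CPM and 19.1 against 73.5 CPM, where 0.366% of genes were called lower. TNFSF13B (BAFF), a B cell survival factor, was called lower in CFSE-positive than in conventional cells, at 1.89 against 22.1 CPM and 6.68 against 29.2 CPM. In these comparisons CD40LG and TNFSF13B reached 20 CPM only in the group where they were higher. Their calls are therefore not read against the shares of all genes. The ligand medians were 0.10 and -0.81. The lymphotoxin beta gene LTB and TNFSF4, the ligand of OX40, were named after their values were seen. LTB stood at 3453 CPM in transferred cells of day 3 and 1394 to 2365 CPM in the other libraries. TNFSF4 was at 35.1 and 24.7 CPM in transferred cells and 13.8 to 16.6 CPM elsewhere. The GITR ligand TNFSF18 was not analysed here, and TNFSF9, the ligand of 4-1BB, was at most at 0.16 CPM.

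**Figure D5:**
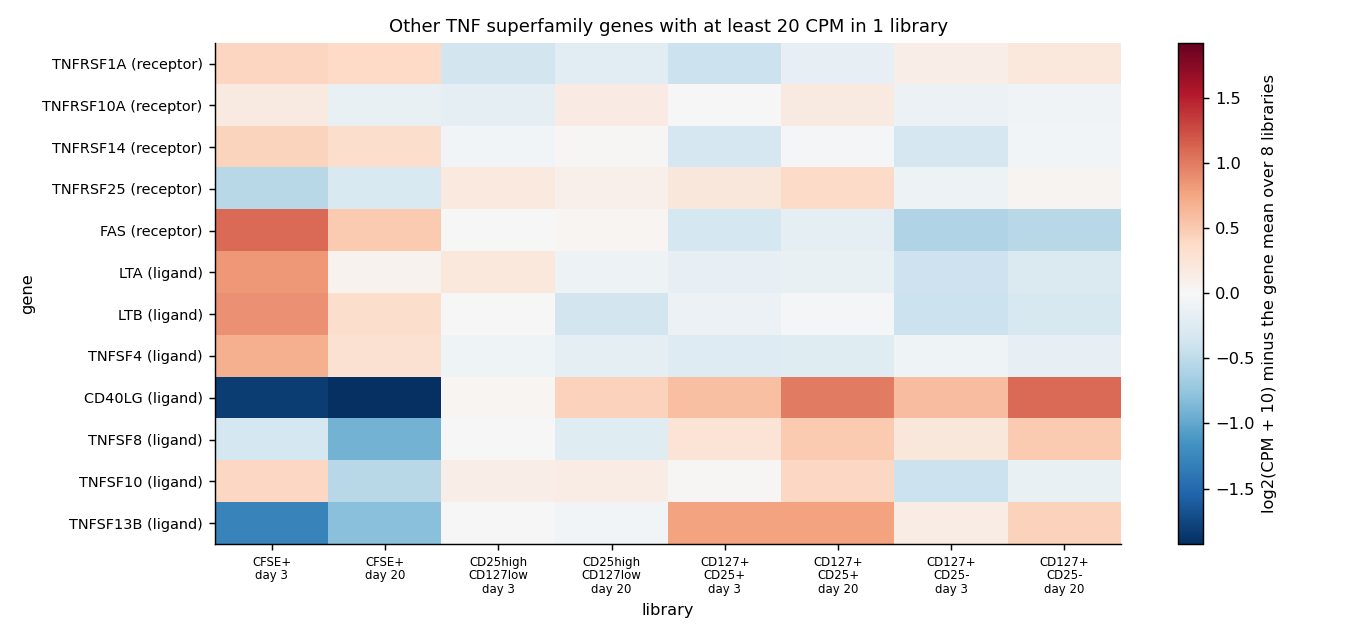
Log2(CPM + 10) of the other TNF receptors and ligands with at least 20 CPM in 1 library, each minus its mean over the 8 libraries (colour scale), rows being genes and columns libraries. CD40LG and TNFSF13B are lowest in the CFSE-positive libraries, and FAS and LTB are highest in that of day 3.

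Of 26 receptor adaptors and NF-kB components, 24 were in the table, 12 to 15 passed the minimum depending on the comparison, and 0 were called in any of the 10 comparisons. With 0.0274% to 2.55% of all genes called per direction, a count of 0 among so few genes is near the background and is not a result about them. Their median ratio of transferred to conventional cells was 0.27 and 0.06, under the all-gene medians. Of 18 NF-kB target genes, 17 were in the table and 6 passed. IL2RA, the gene of CD25, was the 1 called higher in CFSE-positive against conventional cells (634 against 5.44 CPM and 305 against 5.16 CPM), where 1.59% of all genes were. CD25 was a marker of the sorts, so this count says nothing of the list. NFKBIZ, an inducible nuclear regulator of NF-kB, was lower in transTreg than endoTreg cells, at 46.0 against 111 CPM and 31.9 against 100.5 CPM. It was the 1 target of 6 called lower there, where 1.23% of 3810 genes were. The median of the 6 targets against conventional cells was 0.07 and 0.04.

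For reference, 12 of 14 Treg core genes were in the table and 7 passed, of which FOXP3, IL2RA and RTKN2 were called higher in CFSE-positive against conventional cells, beside 1.59% of all genes. In CD25high CD127low cells these 3 and CTLA4 were called, beside 0.646% of all genes. CD25, the product of IL2RA, was a marker of the sorts. FOXP3, IL2RA and CTLA4 reached 20 CPM only in the sorts where they were higher. These counts are therefore not read against the shares of all genes. CTLA4, an inhibitory receptor, was at 49.4 and 47.7 CPM there, at 37.5 and 24.4 CPM in CFSE-positive cells and at 11.4 and 9.58 CPM in conventional cells. From day 3 to day 20 in transferred cells, IL2RA and LRRC32, the gene of the TGF-beta carrier GARP, were called lower. They were at 634 and 305 CPM and at 32.8 and 3.01 CPM, where 2.12% of all genes were called lower. LRRC32 reached 20 CPM on day 3 only, so this count is not read against that share either.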

How the data were processed

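Whole UMI counts per gene and cell were deposited by the authors, together with the library, class, finer name and cluster of each cell. Libraries used 10x 3' version 2 chemistry, per the labels' protocols, and Cell Ranger 2.1.1, per the submitters' processing notes. Neither the genome build nor the annotation, cell filters or naming method is given by these sources. The authors' UMI totals equal the column sums for all 25397 cells.

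Counts were summed over cells of a group and divided by its total (CPM). Groups under 50 cells were left out. Log2 ratios used a pseudocount of 10 CPM, which understates changes of low genes. A call needed 2-fold and 20 CPM in 1 compared group, on both days for sorts and classes. Folds with intervals are ratios of CPM without pseudocount, from the exact conditional test's interval. With 1 library per group no p-value was computed. The calling and interval functions were tested on simulated data. All cells were kept and no doublet caller was run. Thinned shares are exact expectations. 0 columns of other samples were present. Where the file had no symbol for an identifier (3130), 309 were named from the reference table.

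Named genes were the 6 members, the 3 closest genes per member, list members called in a comparison (at most 4 per list and direction), and FOXP3, IL2RA and IL7R. Outside this rule, TNFRSF14, TNFRSF25, EDA2R, LTB and TNFSF4 were named after their values were seen, and TNFSF9 as the ligand of a member. Members, lists (5, with 99 genes, 86 found), markers and tests were chosen with earlier results of these data known. Alternatives were TMM (edgeR 4.0.16) and median-of-ratios (DESeq2 1.42.0) factors, used for scaling only, pseudocounts of 1 and 30 CPM, minima of 50 CPM or none, the mean of per-cell CPM, a 3-fold call, and leaving out 1416 doublet-like cells (3 or more UMIs of platelet, monocyte, red cell or B cell markers, or over 2 times the median UMIs of the library). Leaving out cells with a shared barcode or any B cell marker UMI, and likeness over library and class, were added after the data were seen. Scripts used Python 3.11.15, numpy 2.4.6, pandas 2.3.3, scipy 1.17.1 and R 4.3.3.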

Additional observations from a re-analysis of the deposited data

Results flagged for a closer look

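Several ratios pointed in opposite directions on the 2 days or in different sorts, with counting intervals on opposite sides of no change. With 1 library per group the differences between them were not tested, and the intervals cover counting error only. CD27 was lower in CFSE-positive than in CD127-positive CD25-negative cells on day 3 (log2 ratio -0.51) and higher on day 20 (0.63). Against the same conventional libraries, CD25high CD127low cells were likewise lower for CD27 on day 3 (-0.34) and higher on day 20 (0.61).

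Between days, CD27 was higher on day 20 in CFSE-positive (0.88), CD25high CD127low (0.68) and CD127-positive CD25-positive cells (0.24), and lower in CD127-positive CD25-negative cells (-0.26). TNFRSF18 was higher in transTreg than endoTreg cells on day 3 (0.92) and lower on day 20 (-0.45). From day 3 to day 20 it was lower in CFSE-positive cells (-1.24) and higher in CD127-positive CD25-positive cells (0.24). The all-gene median between days was 0.13 in the latter sort, and relative to it TNFRSF18 and CD27 were each at 0.11. In CFSE-positive cells this median was -0.26, and TNFRSF18 was at -0.97 relative to it.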

How the results depend on the processing

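No paired analysis was possible because each sort and day gave 1 library and the labels carry no replicate numbers. Of 224 recomputed counts, of called members and of genes kept among those most like a member, 207 stayed within 1.5 times the original, and 17 moved. None reversed. For CFSE-positive against CD127-positive CD25-negative cells, the 2 members called higher became 1 (TNFRSF18) under TMM scaling, median-of-ratios scaling, a pseudocount of 30 CPM, the mean of per-cell CPM and without cells with a B cell marker UMI, and 0 with a 3-fold call. For CD25high CD127low against conventional cells, the 2 became 1 (TNFRSF18) with the mean of per-cell CPM, and 0 with a pseudocount of 30 CPM, a 3-fold call and without cells with a B cell marker UMI. For endoTreg against Tconv cells, the 1 member called higher (TNFRSF1B) became 2 with a pseudocount of 1 CPM and with the mean of per-cell CPM, and 0 with a 3-fold call. Between days in CFSE-positive cells, 1 member (CD27) was called higher with a pseudocount of 1 CPM, and with a 3-fold call 1 member (CD70) in place of 2 was lower. The causes were not tested. TMM scaling moved the all-gene median by -0.30 to 0.13. Of the 12 genes most like a member, 1 was kept with Spearman and 3 over library and class. Groups of library and Category gave all 12, since Category is the library name. Of 880 single ratios, 822 moved by less than counting error and 58 by more. A 3-fold call, a minimum of 50 CPM and no minimum leave every ratio as it was. Ratios under these settings could not move and are among the 822, so the share that stayed is not a measure of stability. TNFRSF9, with 7 UMIs in all cells, was too rare to compare, and the reason was not tested.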
